A study of Homo sapiens with 4 samples.

Results

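The genes described here are 49 human genes that copy DNA in S phase or prepare cells for it, followed in HEK-293T cells with and without THUMPD1. They were chosen by name as known replication genes, and every symbol was found among the 18917 genes of the count table. RNA had been sequenced in 4 libraries, 2 from WT cells and 2 from THUMPD1 KO cells. HEK-293T is an immortalized line from human embryonic kidney that carries the SV40 large T antigen. The labels call the line HEK293. THUMPD1 is the adaptor protein with which the acetyltransferase NAT10 places N4-acetylcytidine on leucine and serine tRNAs. Cells of both genotypes were grown in DMEM with 10% serum and 2 mM glutamine, and no agent was added in either group. The KO cells had been made with CRISPR-Cas9 and sorted as single cells, so that genotype and clone cannot be told apart. How many clones stand behind the KO libraries is not given in the sources used here, nor is it stated whether the 2 libraries of a genotype came from separate cultures. Their spread may therefore be technical.

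Total counts ran from 7875722 to 11362363 per library, so that a count of 3 was worth 0.259 to 0.391 CPM (counts scaled to library size, after TMM, a scaling that takes most genes to be unchanged). The targeted gene, THUMPD1, stood at 46.4 and 42.5 CPM in WT and at 6.13 and 5.44 CPM in KO, lower in both KO libraries as their labels say. Of the kidney markers, SALL1 was detected at 76.5 to 91.9 CPM, whereas OSR1 stayed between 2 and 12 counts. The blood marker HBB had 0 counts in all libraries, which allows a level of up to 0.391 CPM, and CD3E had at most 1 count. Neuronal genes, which this line is known to express, did not move together, with NEFM at 184.5 and 176.7 CPM in WT and 26.3 and 23.0 CPM in KO but SYP at 34.4 to 40.2 CPM in all libraries. Chromosomes 16 and 22 stood apart. The median log2 fold change of KO against WT was -0.44 over 573 tested genes of chromosome 16 and -0.42 over 311 of chromosome 22, against 0.03 over all other placed genes. THUMPD1 itself lies on chromosome 16. Replication genes on these chromosomes are marked as such beside each result.

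DNA replication begins when the origin recognition complex, with CDC6 and CDT1, loads the ring-shaped MCM helicase onto DNA in G1. Kinases, MCM10, CDC45 and the GINS complex then turn the loaded ring into an active helicase, behind which primase and DNA polymerases copy each strand. Many of the genes for these proteins are transcribed at the G1/S border by E2F factors, which the retinoblastoma protein RB holds back until cyclin-dependent kinases release them. In cells with SV40 large T antigen, RB is bound by that protein.

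The E2F site was therefore looked for in their promoters, since it is the element these genes are known to share. Promoters ran from 250 bases before to 50 bases after the start site (RefSeq, GRCh38.p14), and 42 of the 49 genes had an entry. The site was searched on both strands as TTTCCCGC, TTTCGCGC, TTTGCCGC or TTTGGCGC. At least 1 of these forms stood in 22 of the 42 genes (52.4%). The share was 6.53% of all 9927 genes tested with a promoter entry and 3.31% of all 35116 promoter entries. The 22 genes held 31 sites, of which 3 pairs overlapped. The following stretches are shown for 3 genes whose RNA was higher in KO cells and 3 whose RNA was lower, so that the sites can be compared between the directions. Each is written 5′ to 3′ on the strand of its gene with 1 site in capitals.
TYMS (chr18:657588-657647, plus strand): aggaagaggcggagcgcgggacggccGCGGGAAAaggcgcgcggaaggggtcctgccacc
E2F1 (chr20:33686386-33686444, minus strand): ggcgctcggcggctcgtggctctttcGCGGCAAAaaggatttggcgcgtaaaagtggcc
CDC7 (chr1:91501018-91501077, plus strand): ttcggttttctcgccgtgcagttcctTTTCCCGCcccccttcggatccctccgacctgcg
LIG1 (chr19:48170425-48170484, minus strand): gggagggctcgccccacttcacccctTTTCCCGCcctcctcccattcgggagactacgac
MCM7 (chr7:100101551-100101610, minus strand): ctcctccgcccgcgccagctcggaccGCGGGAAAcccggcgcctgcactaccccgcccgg
UHRF1 (chr19:4909958-4910017, plus strand): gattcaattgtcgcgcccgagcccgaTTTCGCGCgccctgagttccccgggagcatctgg
The same form, TTTCCCGC, read on either strand, is in capitals for TYMS and CDC7 of the first 3 and for LIG1 and MCM7 of the last 3. Further sites lay in stretches not shown. CDC7 held another TTTCCCGC, read on the opposite strand, UHRF1 held TTTCCCGC in another promoter entry, and MCM7 held TTTCGCGC. A match of letters is a description and not a bound site.

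The comparison of KO with WT asked whether the RNA of replication genes changed when tRNA acetylation was lost. The genes did not all move one way. In these bulk libraries a change in the share of cells in S phase and a change in the RNA of each cell cannot be told apart. With edgeR's quasi-likelihood test and Benjamini-Hochberg adjustment over all 13128 genes tested, 7 of the 49 rose and 9 fell at an adjusted p under 0.05. TYMS, RRM2, CCNE2, E2F1, MCM10, CDC7 and POLD3 rose. MCM5, GINS1, CDC6, GINS3, UHRF1, LIG1, CDC45, MCM7 and MCM4 fell. All 49 passed the filter on low counts, with 85 to 3525 counts per library. The 16 changed genes are 32.7% of the 49. Among all genes tested 20.9% changed, with 8.79% higher and 12.1% lower, and among genes of the same range of mean CPM as the replication genes 24.5% changed. The CPM of WT and KO did not overlap for 34 of the 49, 18 higher and 16 lower in KO, where 60.4% of all genes tested did not overlap. The median log2 fold change of the 49 was 0.02, and that of all genes tested 0.01.

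Changes were small. They ran from -0.42 to 0.78 on the log2 scale, and the median absolute change of the 49 genes was 0.19, beside 0.21 over all genes tested. The median absolute difference between the replicates of a genotype was 0.10 in WT and 0.08 in KO. Over all genes tested it was 0.14 in WT and 0.13 in KO. Scaling the libraries by their totals alone, instead of by TMM, gave 14 replication genes higher and 4 lower, and limma-voom with quantile normalization gave 9 higher and 6 lower. Without KO replicate 1, 9 of the 49 were called, 5 higher and 4 lower. The calls of TYMS, RRM2, E2F1, MCM10, MCM5, GINS1 and UHRF1 were made under all 8 alternatives and with each library left out.

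**Figure D1:**
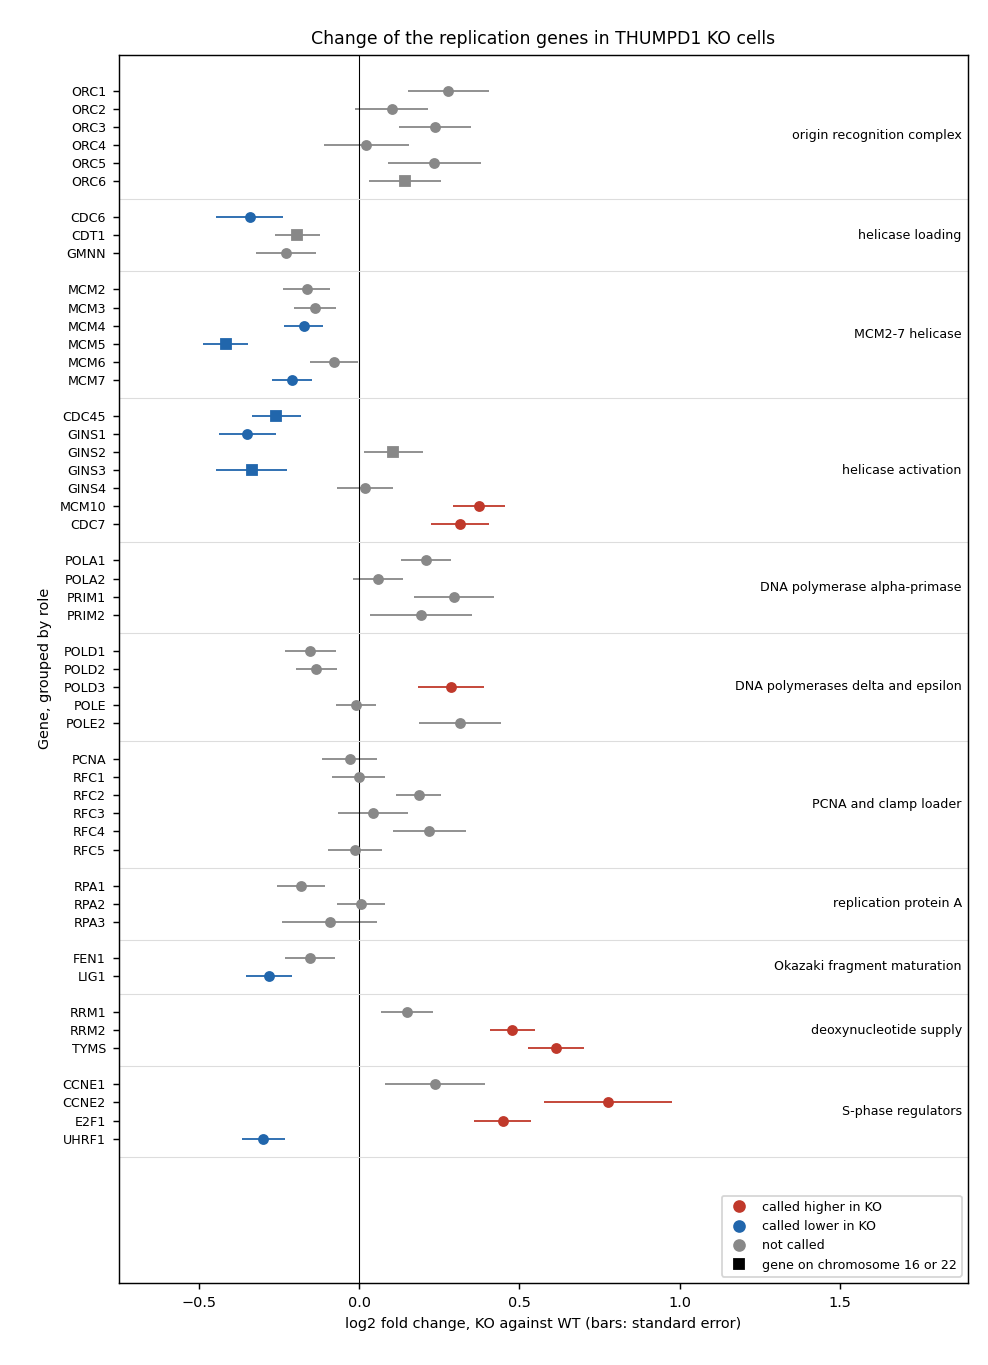
Log2 fold change of KO against WT for each of the 49 genes, grouped by role, with bars for the standard error of the fit over 4 libraries. Red and blue points are genes called higher and lower at an adjusted p under 0.05, and squares are genes on chromosomes 16 and 22. CCNE2 lies farthest to the right at 0.78 and MCM5 farthest to the left at -0.42, and the 6 helicase subunits all lie left of 0.

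The origin recognition complex marks the places where replication can start. None of its 6 genes was called, and their log2 fold changes ran from 0.02 to 0.28 with a median of 0.19. ORC1, the subunit whose protein rises and falls with the cell cycle, stood at 30.1 and 31.5 CPM in WT and at 34.6 and 40.2 CPM in KO. The genotypes did not overlap, but the log2 fold change of 0.28 had a standard error (SE) of 0.13 and an adjusted p of 0.125. ORC2 had the highest mean of the 6 and gave 47.3 and 59.2 CPM in WT against 62.6 and 52.3 CPM in KO, which overlapped. ORC6, on chromosome 16, gave 39.5 and 47.1 CPM in WT and 48.8 and 47.3 CPM in KO, a log2 fold change of 0.14 (SE 0.11, adjusted p = 0.4). That value lies 0.58 above the median of its chromosome. Log2 fold changes of ORC3, ORC4 and ORC5 were 0.24, 0.02 and 0.23. Library size alone called ORC1 (0.36) and ORC3 (0.32). ORC2 and ORC4 were below 0, at -0.04 and -0.11, without WT replicate 1.

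Of the 3 genes that load the helicase or restrain its loading, 1 was called lower. CDC6 recruits the helicase to origins. It stood at 76.5 and 74.2 CPM in WT and at 52.3 and 66.7 CPM in KO, so that both KO libraries lay below both WT libraries but farther from each other than the WT libraries were. Its log2 fold change was -0.34 (SE 0.10, adjusted p = 0.0192). The call was lost with library size alone (-0.26), with DESeq2 (-0.35, adjusted p = 0.0869) and without KO replicate 1 (-0.17). CDT1, the second loading factor, lies on chromosome 16. It gave 149.3 and 149.7 CPM in WT and 129.1 and 132.6 CPM in KO, with a log2 fold change of -0.19 (SE 0.07) and an adjusted p of 0.0524, and was called with TMM factors made without chromosomes 16 and 22 (-0.21, adjusted p = 0.0302). GMNN encodes geminin, which binds CDT1 and stops a second round of loading. Its CPM were 97.7 and 81.5 in WT and 80.3 and 71.8 in KO, with a log2 fold change of -0.23 and an adjusted p of 0.0873, and it was called without WT replicate 2 (-0.36) or KO replicate 1 (-0.31). The log2 ratio of CDT1 to GMNN counts within a library, which does not depend on scaling, was 0.61 and 0.88 in WT and 0.68 and 0.89 in KO. The genotypes overlapped in this ratio.

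All 6 subunits of the MCM2 to MCM7 helicase had log2 fold changes below 0, with a median of -0.17, and 3 of them fell. MCM6 came to 0.01 when libraries were scaled by their totals alone. MCM5, on chromosome 22, fell most of the 49 genes. It stood at 199.6 and 215.4 CPM in WT and at 147.2 and 164.4 CPM in KO, a 1.33-fold lower level with a log2 fold change of -0.42 (SE 0.07, adjusted p = 0.000126). This is the median of chromosome 22 itself, so that the change of MCM5 and that of its chromosome cannot be told apart. MCM7 is the most abundant of the 49 by mean CPM, at 306.0 and 320.4 CPM in WT and 265.1 and 276.8 CPM in KO. Its log2 fold change was -0.21 (SE 0.06, adjusted p = 0.0164). MCM4 gave 299.7 and 300.6 CPM in WT and 260.6 and 271.9 CPM in KO, with a log2 fold change of -0.17 (SE 0.06, adjusted p = 0.0467). In both genes the libraries of a genotype lay closer to each other than to those of the other genotype. MCM7 lost its call with library size alone (-0.13), without WT replicate 2 (-0.18) and without KO replicate 1 (-0.18). MCM4 lost its call under 4 of the 8 alternatives, from -0.18 with DESeq2 to -0.09 with library size alone, and when any of the 4 libraries was left out (-0.20 to -0.14). MCM2, MCM3 and MCM6 had log2 fold changes of -0.16, -0.14 and -0.08 and were not called, though MCM2 was called at -0.29 without WT replicate 1. Without MCM5 the median of the other 5 was -0.16.

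The helicase holds its protein subunits in equal number, and the RNA levels of their genes were also set beside each other per length. RNA per annotated length does not measure the number of protein subunits. MCM7 had 127.0 CPM per kb of transcript in WT and MCM6 had 32.3. MCM3, MCM2 and MCM4 were close to each other at 78.9, 74.5 and 73.9 CPM per kb in WT, and MCM5 stood at 60.0. In KO the same order held, from 109.8 CPM per kb for MCM7 over 71.8, 66.7 and 65.6 for MCM3, MCM2 and MCM4 to 45.1 for MCM5 and 30.7 for MCM6. The log2 ratio of MCM5 to the other 5 subunits was -2.58 and -2.56 in WT and -2.86 and -2.79 in KO. KO lay 0.25 below WT in this ratio, with no overlap and an SD of at most 0.05 within a genotype. The difference restates the changes given above for MCM5, a gene of chromosome 22, and the other subunits, and is a description. An exact permutation test of 2 against 2 libraries cannot go below p = 0.333 (two-sided), so the ratios are given without a test.

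Genes that activate the loaded helicase moved both ways, with 2 of 7 higher and 3 lower. MCM10, which starts the active helicase moving, stood at 77.5 and 81.7 CPM in WT and at 105.2 and 101.4 CPM in KO. Its log2 fold change was 0.37 (SE 0.08, adjusted p = 0.00156). CDC7, the kinase that phosphorylates the loaded MCM ring, gave 74.5 and 78.4 CPM in WT and 103.0 and 87.3 CPM in KO, with a log2 fold change of 0.32 (SE 0.09, adjusted p = 0.0129). It was not called with DESeq2 (adjusted p = 0.0723) or without KO replicate 1 (0.19). The KO libraries were both above the WT libraries for these genes, by little in KO replicate 2 of CDC7. DBF4, the partner that switches CDC7 on, gave 46.6 and 37.5 CPM in WT and 56.2 and 43.2 CPM in KO, which overlapped, and was not called (log2 fold change 0.25, adjusted p = 0.169). It was called with library size alone (0.34), without WT replicate 1 (0.41) and without KO replicate 2 (0.43).

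CDC45 and the GINS proteins are the parts that join MCM2 to MCM7 in the moving helicase. CDC45, on chromosome 22, stood at 115.4 and 119.4 CPM in WT and at 95.0 and 101.6 CPM in KO (log2 fold change -0.26, SE 0.08, adjusted p = 0.0173). Neither genotype's libraries reached into the other's. GINS1 gave 79.2 and 78.8 CPM in WT and 62.6 and 61.5 CPM in KO, a log2 fold change of -0.35 (SE 0.09, adjusted p = 0.00608), with replicates close to each other in both genotypes. GINS1 lies on chromosome 20, outside the 2 chromosomes with lower medians. GINS3, on chromosome 16, gave 54.6 and 48.6 CPM in WT and 40.6 and 41.0 CPM in KO (log2 fold change -0.34, SE 0.11, adjusted p = 0.0301). GINS2 lies on the same chromosome and stood at 67.6 and 75.5 CPM in WT and at 72.7 and 82.0 CPM in KO, which overlapped (log2 fold change 0.11, adjusted p = 0.449). GINS4 was at 0.02. Of the 4 GINS subunits 2 were called lower and 2 were not called, and the difference between them was not tested. With library size alone, limma-voom and DESeq2 neither CDC45 nor GINS3 was called. CDC45 also lost its call without WT replicate 2 (-0.23) and without KO replicate 1 (-0.21). GINS3 lost it without WT replicate 1 (-0.25), KO replicate 1 (-0.33) or KO replicate 2 (-0.34).

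Within each library CDC45 was set against MCM10, which moved the other way. The log2 ratio of CDC45 to MCM10 counts was 0.57 and 0.55 in WT and -0.15 and 0.00 in KO, so that CDC45 had more counts than MCM10 in both WT libraries and fewer or about as many in KO. The difference of -0.63 restates the changes of these genes, which were paired with those changes known, and is a description. The ratio of GINS2 and GINS3 to GINS1 and GINS4 was -0.36 and -0.29 in WT and -0.31 and -0.14 in KO, which overlapped. ORC6 against the other ORC genes gave -2.06 and -2.03 in WT and -2.08 and -2.05 in KO and overlapped as well.

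No gene of the DNA polymerase alpha and primase complex, which lays down the RNA and DNA primers, was called, although all 4 had log2 fold changes above 0 (median 0.20). POLA1, the catalytic subunit, gave 98.9 and 111.4 CPM in WT and 126.1 and 117.7 CPM in KO (log2 fold change 0.21, SE 0.08, adjusted p = 0.0623). PRIM1, the catalytic primase subunit, gave 32.1 and 29.5 CPM in WT and 37.5 and 38.0 CPM in KO (0.30, SE 0.12, adjusted p = 0.0911). Both genes had KO above WT without overlap. POLA1 was called under 5 of the 8 alternatives, among them the study's limma-voom (0.26, adjusted p = 0.0314), and without WT replicate 2 (0.30), and PRIM1 with library size alone (0.38). POLA2 was at 0.06 and PRIM2 at 0.19, and PRIM2 came to -0.05 without KO replicate 1.

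DNA polymerases delta and epsilon extend the primers, with 1 of 5 genes called. POLD3, an accessory subunit of polymerase delta, rose from 49.2 and 45.4 CPM in WT to 56.9 and 58.3 CPM in KO (log2 fold change 0.29, SE 0.10, adjusted p = 0.0469). Its call was lost with TMM factors made without chromosomes 16 and 22 (adjusted p = 0.0645), with DESeq2 (adjusted p = 0.203) and without WT replicate 2 (0.23), KO replicate 1 (0.31) or KO replicate 2 (0.27). POLE, the catalytic subunit of polymerase epsilon, had nearly the same level in all libraries, at 274.9 and 267.6 CPM in WT and 271.7 and 267.3 CPM in KO. POLE2, its second subunit, gave 28.1 and 27.8 CPM in WT and 35.0 and 34.5 CPM in KO. Replicates of POLE2 lay close to each other, and its log2 fold change was 0.31 (SE 0.13, adjusted p = 0.0813). Library size alone called it (0.40). POLD1 and POLD2 were at -0.15 and -0.13, and POLD1 was called at -0.25 without WT replicate 1.

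None of the genes for the sliding clamp PCNA and its loader RFC was called, and none of the 3 genes of replication protein A, which coats single-stranded DNA. PCNA gave 135.4 and 112.7 CPM in WT and 127.2 and 114.6 CPM in KO, which overlapped, with a log2 fold change of -0.03 (SE 0.08). RFC2 had the highest mean of the clamp genes, with 139.0 and 148.9 CPM in WT and 161.5 and 166.7 CPM in KO (0.19, SE 0.07, adjusted p = 0.0591). It was called under 5 of the 8 alternatives, among them limma-voom (0.24, adjusted p = 0.018), and without WT replicate 2 (0.24). RFC4 had the largest change of them at 0.22 (SE 0.11, adjusted p = 0.182), from 37.4 and 44 CPM in WT to 49.1 and 46.2 CPM in KO. RFC1, RFC3 and RFC5 lay between -0.01 and 0.04. RPA1, the large subunit of replication protein A, gave 131.3 and 131.6 CPM in WT and 112.3 and 119.8 CPM in KO (-0.18, SE 0.07, adjusted p = 0.0831). RPA2 gave 130.2 and 139.7 CPM in WT and 141.6 and 129.9 CPM in KO, which overlapped, and RPA3 was at -0.09.

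Of the enzymes that mature Okazaki fragments, the short pieces of the lagging strand, LIG1 was called. This DNA ligase stood at 136.4 and 138.7 CPM in WT and at 110.9 and 115.7 CPM in KO (log2 fold change -0.28, SE 0.07, adjusted p = 0.00658). Without KO replicate 1 it was -0.25 with an adjusted p of 0.0733. FEN1, the flap nuclease that works before it, gave 106.3 and 112.2 CPM in WT and 98.5 and 98.2 CPM in KO (-0.15, adjusted p = 0.165).

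Genes that supply deoxynucleotides held the 2 lowest adjusted p-values of the 49. TYMS encodes thymidylate synthase, which makes the thymidine nucleotide. It stood at 59.5 and 59.0 CPM in WT and at 91.2 and 90.3 CPM in KO, or 59.3 ± 0.385 against 90.8 ± 0.621 (SD, n = 2), a 1.53-fold higher level. Its log2 fold change was 0.62 (SE 0.09, adjusted p = 1.24e-05). RRM2, the S-phase subunit of ribonucleotide reductase, gave 117.3 and 121.4 CPM in WT and 168.4 and 164.4 CPM in KO, with a log2 fold change of 0.48 (SE 0.07, adjusted p = 2.07e-05). For both genes the gap between genotypes was many times the gap between replicates. RRM1, the large subunit of the same enzyme, gave 91.2 and 90.2 CPM in WT and 104.5 and 96.4 CPM in KO (0.15, SE 0.08, adjusted p = 0.199), and was called with library size alone (0.23). Per length, RRM2 went from 36.6 CPM per kb in WT to 51.1 in KO, and RRM1 from 28.9 to 32.0.

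Among the regulators of S-phase entry, CCNE2 and E2F1 rose. CCNE2 encodes cyclin E2, which activates CDK2 at the G1/S border. It had the lowest level of the 49 genes, with 85, 100, 180 and 200 counts in WT replicates 1 and 2 and KO replicates 1 and 2. In CPM these were 11.1 and 9.09 in WT and 15.5 and 18.8 in KO, a log2 fold change of 0.78 (SE 0.20, adjusted p = 0.00629). The change was the largest of the 49 and also had the largest SE. Without WT replicate 2, or without KO replicate 2, it was 0.63 and not called. CCNE1, which encodes cyclin E1, gave 19.4 and 27.5 CPM in WT and 29.6 and 26.3 CPM in KO, which overlapped (0.24, adjusted p = 0.304), and was called at 0.53 without WT replicate 2.

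E2F1, a factor that turns on many of the genes described here, stood at 67.0 and 79.4 CPM in WT and at 102.5 and 98.2 CPM in KO. Its log2 fold change was 0.45 (SE 0.09, adjusted p = 0.000635). UHRF1, which reads hemimethylated DNA behind the fork and brings in the DNA methyltransferase, went the other way, from 220.6 and 236.1 CPM in WT to 179.4 and 192.4 CPM in KO (-0.30, SE 0.07, adjusted p = 0.0019). For both genes WT and KO did not overlap.

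The genes that fell lay on chromosomes with and without the lower median, and the 7 that rose lay outside chromosomes 16 and 22. On chromosomes 16 and 22 lay 6 of the 49 genes, of which MCM5, CDC45 and GINS3 fell and CDT1, ORC6 and GINS2 were not called. Their median log2 fold change was -0.23. Of all 884 genes tested on these chromosomes, 54% were called lower, only 7 genes were called higher and the median was -0.44. Set against the median of their own chromosome, MCM5 was at 0.00, CDC45 at 0.16, GINS3 at 0.11, CDT1 at 0.25, GINS2 at 0.55 and ORC6 at 0.58. Whether these genes fell with their chromosomes was not tested. Library size alone, limma-voom, DESeq2 and the fit without KO replicate 1 each called 1 of the 6. On the other chromosomes 7 of 43 rose and 6 fell, where 18.4% of 12129 genes tested changed in either direction, and the median was 0.02 beside 0.03 for all genes there. Without KO replicate 1, 8 of the 43 were called.

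The abundant replication genes tended to lie lower and the scarce ones higher. Across the 49 genes the log2 fold change and the log2 mean CPM had a Pearson correlation of -0.51 and a Spearman correlation of -0.48. Across all genes tested the values were -0.14 and -0.12. The points of these correlations are genes measured in the same 4 libraries, not independent replicates, and no p is given. Genes called higher had a median of 85.8 CPM, those called lower 125.4 CPM and those not called 83.0 CPM. GC content of the transcript moved along with the change too, with a Spearman correlation of -0.45 across the 49 genes and -0.35 across all genes placed. The median GC content was 42.6% for the genes called higher and 51.3% for those called lower. The part of GC content in these changes was not tested.

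**Figure D2:**
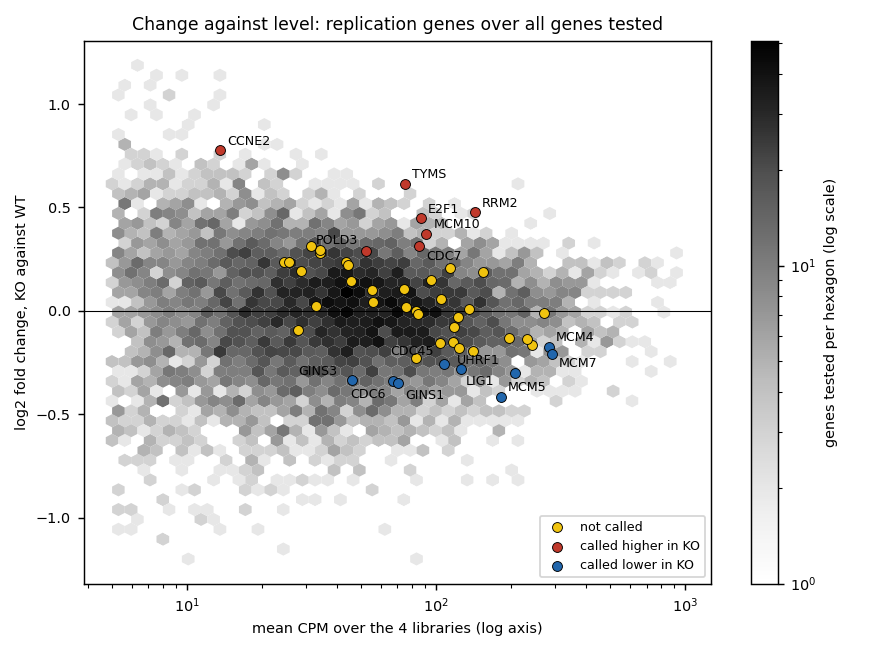
Log2 fold change of KO against WT plotted against mean CPM over the 4 libraries (log axis). Grey hexagons count all genes tested with 5 to 1000 CPM and a change of at most 1.2, and colored points are the 49 replication genes. Called genes are named, with CCNE2 at 13.6 CPM at the upper left and MCM4 and MCM7 at the lower right.

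Promoters of both directions held the E2F letters. A site was found in 3 of the 5 genes called higher that had a promoter entry (TYMS, E2F1 and CDC7) and in 6 of 7 called lower (CDC6, GINS1, GINS3, LIG1, MCM7 and UHRF1). Of the genes not called it was found in 13 of 30 (43.3%). Among the other replication genes listed in the next paragraph the share was 24.6% of 65. A CCAAT box, the letters that factor NF-Y binds, stood in 25 of the 42 promoters (59.5%), in 43.3% of those of all genes tested and in 34.6% of all promoter entries. The sites lay from 187 bases before the start to a few bases after it. In E2F1 itself the site in capitals above begins 33 bases before the start. A second site, TTTGGCGC, stands in lower case in the same stretch and begins 20 bases before the start.

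Genes of the wider pathway were read from a list of 79, of which 78 could be tested and ASF1A had 0 counts in all libraries. Of the 78, 9 rose and 8 fell, and their median log2 fold change was 0.06. These 17 of 78 are close to the share of all genes tested, of which 20.9% changed, 8.79% higher and 12.1% lower. CDKN1A, which encodes the CDK inhibitor p21, rose most, from 20.7 and 22.8 CPM in WT to 32.3 and 42.5 CPM in KO (0.77, SE 0.15, adjusted p = 0.000397). The next in size were FBXO5, an inhibitor of the anaphase-promoting complex, at 0.50, E2F7, a repressor of E2F targets, at 0.46, CDKN2C, an inhibitor of CDK4 and CDK6, at 0.40, and TOPBP1, a scaffold in origin firing, at 0.37. CDKN2C and TOPBP1 were not called without KO replicate 1, each with an adjusted p of 0.0513.

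On the lower side, DCTPP1, a pyrophosphatase that clears modified deoxycytidine nucleotides, was at -0.96, and the clamp-loader subunits CHTF18 and CHTF8 were at -0.62 and -0.42. These 3 genes lie on chromosome 16, like E2F4 at -0.33, so that 4 of the 8 genes that fell are on a chromosome with a lower median. CCND1, which encodes cyclin D1, fell by 0.52 from 35.0 and 34.6 CPM in WT to 24.0 and 24.5 CPM in KO (adjusted p = 0.00523). Off chromosomes 16 and 22, 9 of 73 rose and 4 fell, where 18.4% of all 12129 genes tested changed in either direction. Scaling by library size alone called 22 of the 78 higher and 5 lower, and without KO replicate 1 there were 4 higher and 5 lower.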

How the data were processed

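The authors deposited raw read counts per gene symbol, whole numbers that are not normalized, for 4 libraries, and group and replicate were read from the labels. The submitters' processing notes name hg19. In the study's methods, RNA-seq reads went through STAR and RSEM on GRCh38, a filter at 1 CPM and limma-voom; these methods give 3 samples per genotype and another kit than the labels do. Which pipeline made these counts is not stated, nor is strand in counting, so overlapping genes are uncertain. The deposited table of the authors' own comparison (mean, log2 fold change with error, p-values) was not used.

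Genes reaching 1 CPM in 2 or more libraries entered glmQLFit and glmQLFTest of edgeR 4.0.16 in R 4.3.3 (TMM, Benjamini-Hochberg, threshold 0.05), after the same code was tested on simulated data. The SE is the log2 fold change over the square root of F. CPM per kb and GC content use the annotated canonical transcript of GENCODE 44 on GRCh38, on which 12167 genes were placed by symbol and 846 by synonym. Ratios and CPM were made with pandas 2.3.3. The study's limma-voom with quantile normalization (limma 3.58.1), DESeq2 1.42.0, other scalings and filters, a replicate block and leaving out each library served as alternatives. Replicates differed by more than sampling noise (chi-square over its degrees of freedom 4.08 in WT and 6.9 in KO), and each library counted as 1 replicate.

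Members, roles and the wider list were written by hand, with earlier results of these data known. Genes named with values are those called, those on chromosomes 16 and 22, the highest and the most changed of each role and, of the wider list, the 5 largest rises and falls with CDKN1A and DBF4, of which 1 is not reported here. Others are given by their change. GMNN, PCNA, FEN1, RRM1, CCNE1, E2F4 and NEFM were added after their values were seen. Counting limits cover counting error only.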

Additional observations from a re-analysis of the deposited data

How the results depend on the processing

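No called replication gene changed direction under any alternative or with any library left out. Over the genes named, 639 values kept direction and call, 38 lost a call and 29 gained one. Direction was read from rounded log2 fold changes, so that RFC1, which rounds to 0, could not count as reversed. The 2 libraries per genotype limit the calls, and a test with a library left out takes the lone library to vary like the others. Genes called over all tested were 2748, 1646 with DESeq2, and 1620 to 2591 with a library left out (fewest without KO replicate 1). Replication genes called were 16, 10 with DESeq2 (5 higher, 5 lower), and 9 to 16 with a library left out. On chromosomes 16 and 22 there were 3, 1 with library size alone, limma-voom and DESeq2, and 1 to 2 with a library left out. Elsewhere there were 13, and 8 to 14 with a library left out. Wider-list genes called were 17, 27 with library size alone, and 9 to 20 with a library left out. The median log2 fold change of the 49 genes was 0.10 with library size alone and -0.03 to 0.04 with a library left out, and that of the 43 elsewhere 0.11 with library size alone. The median of all genes was then 0.09. On chromosomes 16 and 22 the count of replication genes called also went up under some settings. It was 4, all lower, with TMM factors made without these chromosomes and again with the replicate block.

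Genes that were not called changed sign as follows. With library size alone MCM6 came to 0.01, POLE to 0.08, PCNA to 0.05 and RFC5 to 0.07. With upper-quartile scaling POLE came to 0.02 and RFC5 to 0.01, with limma-voom POLE to 0.04, PCNA to 0.05 and RFC5 to 0.03, and with TMM factors made without chromosomes 16 and 22 RPA2 to -0.01. With a library left out ORC2 ran from -0.04 to 0.28, ORC4 from -0.11 to 0.19, GINS4 from -0.03 to 0.06, PRIM2 from -0.05 to 0.44, POLE from -0.03 to 0.01, PCNA from -0.16 to 0.10, RFC3 from -0.07 to 0.16, RFC5 from -0.07 to 0.04, RPA2 from -0.06 to 0.07 and RPA3 from -0.29 to 0.17. RFC1, at -0.0013, came to 0.08 with library size alone, to 0.02 with upper-quartile scaling and to 0.04 with limma-voom. It ran from -0.03 to 0.02 with a library left out. The cause of these changes of sign was not tested.

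With the replicate number as a block, 3222 genes, 21 replication genes (9 higher, 12 lower) and 23 of the wider list were called, and CDT1, GMNN, MCM2, POLA1 and RFC2 gained a call. In all, 12 of the 33 replication genes not called gained a call under some setting, and 9 of the 16 called lost theirs under some setting. Deviations of same-numbered libraries correlated at 0.0243, and with 2 pairs the numbers are not shown to pair the samples.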
